A study of Homo sapiens with 10 samples.

Results

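USP9X is a deubiquitinase, an enzyme that takes ubiquitin off other proteins, and several of the proteins it has been reported to act on decide whether a cell lives or dies. Described here are the mRNA levels of USP9X and of 9 other genes: MCL1, BCL2L1, BCL2L11, BAX, BAK1, PMAIP1, XIAP, ITCH and MAP3K5. The 9 were chosen by symbol, as apoptosis regulators or reported USP9X substrates, and not all of them are given here as substrates. The rule uses no measured value, but it was written with earlier results of these data known. All 10 genes were found among the 58735 lines of the count table, each on 1 line, and all 10 passed the filter on low counts that left 13934 genes for testing. The data were 10 RNA-seq libraries of HCMECs, labelled as endothelial cells of the brain and as a cell line. Before RNA was taken, 5 cultures or preparations had received a control siRNA (siCtrl) and 5 an siRNA against USP9X (siUSP9X) for 48 h, and all 10 were then given Wnt3a, a Wnt ligand, for 12 h. No group without Wnt3a was analysed here, so each difference below is one between cells that all had the ligand. The labels give neither the siRNA sequence nor whether 1 or several siRNAs were used, and do not tell whether each library is a culture of its own. The spread behind each p-value is that between libraries and may be technical. RNA was measured and protein was not, so the amount of any of these proteins is not known from these data.

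The BCL2 family controls the permeability of the outer mitochondrial membrane. Its survival members, among them MCL1 and BCL-XL (the product of BCL2L1), hold back the pore formers BAX and BAK, and BH3-only proteins such as BIM (BCL2L11) and NOXA (PMAIP1) bind the survival members and free the pore formers. Once the membrane opens, caspases are activated, and XIAP binds and blocks them. MCL1 is a protein of short life whose ubiquitin marks are added by several ligases and have been reported to be removed by USP9X. XIAP, the ubiquitin ligase ITCH and the stress kinase ASK1 (MAP3K5) have been reported as substrates of USP9X as well.

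Library totals ran from 15958362 to 26467787 counts. siUSP9X replicate 2 was unlike the rest. Its share of counts in ribosomal protein genes was 2.12%, where the remaining siUSP9X libraries had 4.454 to 5.162%, and 122 tested genes had no count in it against 0 to 2 in each other library. Values without this library are therefore given beside those of the 10 genes above and beside list results that it moves. Of 12 endothelial markers, 7 had too few counts for a test, including PECAM1 with 8 counts over the 5 siCtrl libraries, VWF with 5, and ERG, which had no count in any library. Of the 5 tested, ESAM averaged 161 CPM, PROCR 90.3, ENG 84.1, EGFL7 27.5 and CDH5 0.545 in siCtrl, so part of the endothelial list was expressed while several of its defining genes were at or near 0. The summed level of the 12 ran from 319 to 392 CPM (the count relative to the TMM-scaled library total) in siCtrl and from 335 to 364 CPM in siUSP9X, except replicate 2 at 158 CPM. The sum hides single genes. Of the 5 tested, 0 passed the threshold over the 10 libraries. Without siUSP9X replicate 2, ENG was lower (log2 fold change -0.39 ± 0.08, SE, edgeR adjusted p = 0.00193). So was EGFL7 (-0.61 ± 0.15, edgeR adjusted p = 0.00788), where 11.5% of all tested genes were lower. The 5 epithelial markers summed to between 3317 and 4179 CPM in siCtrl and between 2543 and 2759 CPM in siUSP9X, except replicate 2 at 2031 CPM, with KRT8 and KRT18 lower, EPCAM not past the threshold in the 10 libraries and CDH1 and KRT19 too low to test. The 4 leukocyte markers summed to 0.117 CPM or less in every library. The 5 fibroblast markers summed to 2.77 CPM or less, and the 4 mural markers found, without RGS5, to 4.12 CPM or less. The 5 neural markers summed to between 84.7 and 100 CPM in siCtrl and between 81.0 and 86.1 CPM in siUSP9X, except replicate 2 at 111 CPM. Most of the neural sum was MBP, at 91.2 CPM in siCtrl. TUBB3 stood at 3.81 CPM, and GFAP, RBFOX3 and SOX10 were too low to test. The part of these marker differences in the results below was not tested.

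USP9X (chromosome X, 41085635 to 41236579, plus strand, GRCh38 with the GENCODE 29 annotation, as for all positions here) was the gene aimed at and serves as the reference for the rest. Its level was 416, 283, 330, 324 and 352 CPM in siCtrl replicates 1 to 5 and 36.5, 68.8, 27.6, 22.4 and 20.7 CPM in siUSP9X replicates 1 to 5. All siUSP9X libraries lay below all siCtrl libraries, and the highest of them was replicate 2. In bulk RNA, fewer cells with a transcript and less of it per cell cannot be told apart. The means were 341 ± 48.6 CPM and 35.2 ± 19.8 CPM (SD, n = 5 each), 9.68-fold lower with siUSP9X, a log2 fold change of -3.28 ± 0.32 (SE, 95% interval -3.97 to -2.58, adjusted p = 0.000403 by edgeR's quasi-likelihood test with Benjamini-Hochberg adjustment over all tested genes, as for all adjusted p below unless another tool is named). Without siUSP9X replicate 2 the level was 12.7-fold lower (log2 fold change -3.67 ± 0.16, edgeR adjusted p = 4.46e-10).

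Apart from USP9X, 0 of the other 9 genes passed an adjusted p of 0.05 over the 10 libraries with edgeR, 2 of them (MCL1 and BCL2L1) had an unadjusted p under 0.05, and limma-voom called 0 and DESeq2 1 (MCL1, higher). Over all tested genes 7.31% passed that threshold, 4.09% higher and 3.22% lower. The groups did not overlap for 2 of the 10 genes, USP9X and MCL1, against 14.6% of all tested genes. The median log2 fold change of the 9 was 0.08 and that of all tested genes 0.03. When siUSP9X replicate 2 was left out, 1 of the 9 was called higher (MCL1) and 1 lower (BCL2L1), against 11.9% higher and 11.5% lower, or 23.4% in all, over the 14086 genes then tested. The 2 calls of 9 are a share close to that of all genes.

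**Figure D1:**
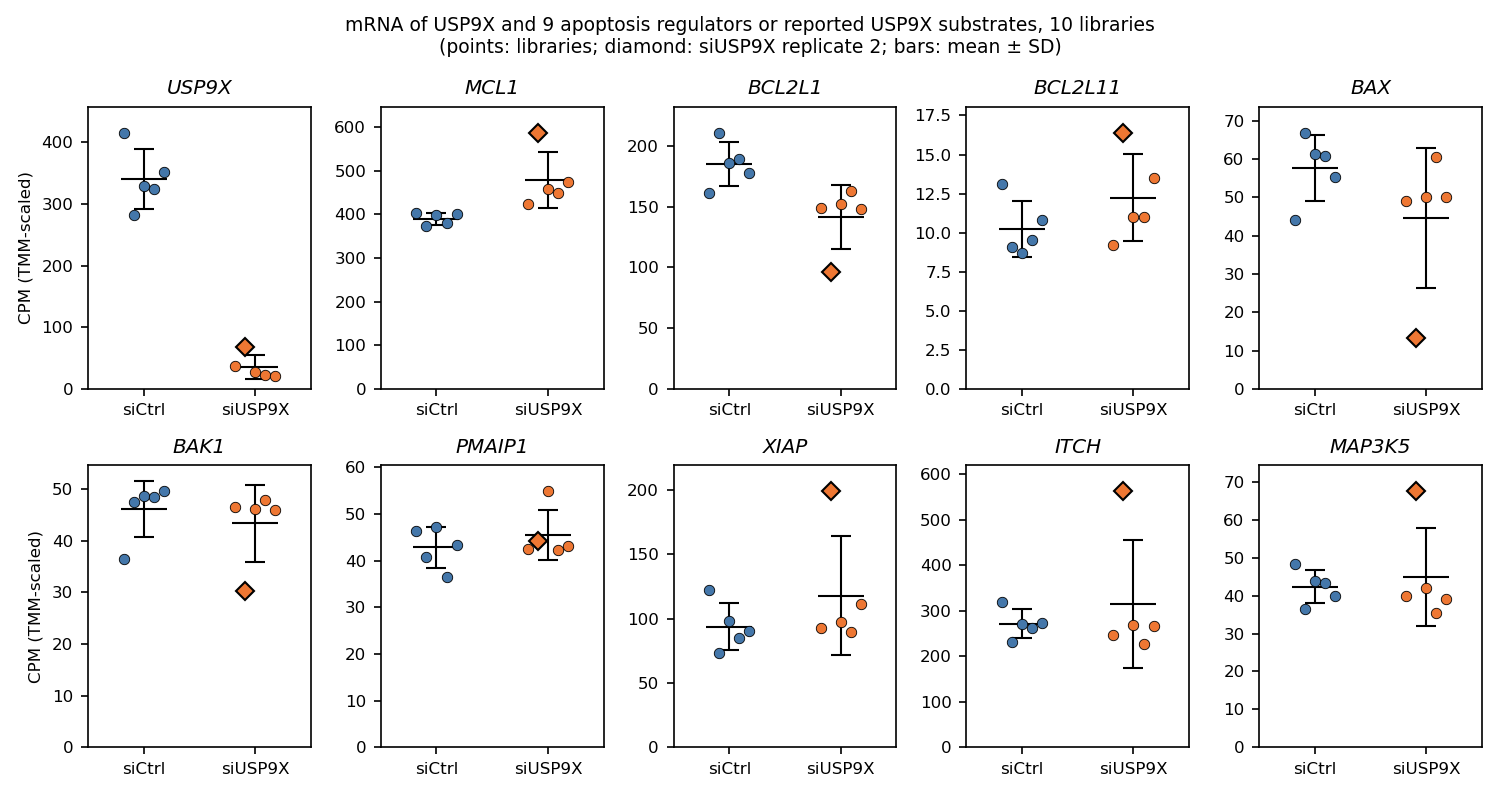
Level of each of the 10 genes in each library, in CPM on linear axes that start at 0, with siCtrl and siUSP9X side by side. Points are libraries, the diamond is siUSP9X replicate 2, and horizontal lines with bars are the mean ± SD (n = 5). USP9X and MCL1 separate the groups, while for BAX, XIAP and ITCH the siUSP9X mean is moved by the diamond.

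MCL1 and BCL2L1 encode the survival proteins of the set. MCL1 (chromosome 1, 150574551 to 150579738, minus strand) stood at 402, 372, 398, 379 and 400 CPM in siCtrl and at 423, 587, 457, 449 and 475 CPM in siUSP9X. All siUSP9X libraries lay above all siCtrl libraries. The means were 390 ± 13.8 and 478 ± 63.8 CPM (SD, n = 5 each), a ratio of 1.23. The log2 difference was 0.29 ± 0.10 (SE, 95% interval 0.07 to 0.52) and did not pass the adjustment over all genes (edgeR adjusted p = 0.100). Over the alternative settings the adjusted p ran from 0.00752 to 0.321, and DESeq2 gave an adjusted p of 0.0379. Without siUSP9X replicate 2, the library with the highest value, the siUSP9X mean was 451 ± 21.8 CPM (n = 4) and the log2 fold change 0.21 ± 0.07 (95% interval 0.07 to 0.35, edgeR adjusted p = 0.0282). MCL1 mRNA was thus called higher in 3 of 20 alternative fits, and in each of the 10 fits that left out 1 library its log2 fold change was between 0.21 and 0.34.

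BCL2L1 (chromosome 20, 31664452 to 31723989, minus strand) stood at 161, 211, 186, 189 and 178 CPM in siCtrl and at 149, 96.1, 152, 163 and 148 CPM in siUSP9X. Of the siUSP9X libraries 4 lay below every siCtrl library, and replicate 4 lay just above the lowest siCtrl library, replicate 1. The means were 185 ± 18.2 and 142 ± 26.2 CPM (SD, n = 5 each). The log2 difference was -0.38 ± 0.14 (SE, 95% interval -0.70 to -0.07, edgeR adjusted p = 0.114). Without siUSP9X replicate 2, which held the lowest value, the mean was 153 ± 6.90 CPM (n = 4) and the log2 fold change -0.27 ± 0.08 (95% interval -0.44 to -0.10, edgeR adjusted p = 0.0195). The adjusted p of BCL2L1 ran from 0.00711 to 0.275 over the alternatives, and the DESeq2 value over the 10 libraries was 0.0555. The survival genes thus lay on opposite sides of 0. Some counts at BCL2L1 could belong to ABALON, a lncRNA on the other strand that overlaps 1424 of its exon bases. ABALON itself had 527 counts over all libraries against 30703 for BCL2L1. Reads of ABALON that were counted at BCL2L1 may be missing from that number, so it cannot settle how many there were. How strand was set in the counting is not given in these sources.

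BAX and BAK1 encode the pore formers. BAX (chromosome 19, 48954815 to 48961798, plus strand) stood at 44.0, 66.9, 61.3, 60.7 and 55.2 CPM in siCtrl and at 49.0, 13.2, 50.2, 60.6 and 50.0 CPM in siUSP9X. Replicate 2 of siUSP9X was far below all other libraries, and the rest overlapped. The means of 57.6 ± 8.69 and 44.6 ± 18.2 CPM (SD, n = 5 each) gave a log2 difference of -0.37 ± 0.31 (SE, 95% interval -1.05 to 0.31, edgeR adjusted p = 0.438), and without that library the difference was -0.13 ± 0.11 (95% interval -0.36 to 0.09, adjusted p = 0.402). BAK1 (chromosome 6, 33572547 to 33580293, minus strand) stood at 36.5, 47.5, 48.6, 48.4 and 49.6 CPM in siCtrl and at 46.6, 30.2, 46.1, 47.9 and 46.0 CPM in siUSP9X. The groups overlapped, and the lowest values were those of siCtrl replicate 1 and siUSP9X replicate 2. The log2 difference was -0.09 ± 0.14 (95% interval -0.40 to 0.22, edgeR adjusted p = 0.691) and turned to 0.02 ± 0.09 (95% interval -0.18 to 0.21, adjusted p = 0.914) without siUSP9X replicate 2. For BAK1 these intervals leave room for a change of about 0.2 on the log2 scale either way once replicate 2 is left out, and for BAX for a decrease of 0.36.

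The BH3-only genes of the set did not pass the threshold. BCL2L11 (chromosome 2, 111119378 to 111168447, plus strand) was at 13.1, 9.07, 8.67, 9.51 and 10.8 CPM in siCtrl and at 9.23, 16.4, 11.0, 11.0 and 13.5 CPM in siUSP9X. Its groups overlapped, with a log2 difference of 0.26 ± 0.17 (SE, 95% interval -0.13 to 0.64, edgeR adjusted p = 0.338). The highest value was again that of siUSP9X replicate 2, and without it the log2 difference was 0.13 ± 0.14 (95% interval -0.17 to 0.42, edgeR adjusted p = 0.545). BCL2L11 shares 727 exon bases with MIR4435-2HG, a lncRNA on the other strand that had 6151 counts over all libraries against 2078 for BCL2L11. The library kit keeps strand, but how strand was set in the counting is not given in these sources, so the BCL2L11 level is uncertain. PMAIP1 (chromosome 18, 59899948 to 59904306, plus strand), whose product NOXA binds MCL1, was at 46.3, 40.8, 47.3, 36.5 and 43.4 CPM in siCtrl and at 42.6, 44.2, 54.9, 42.3 and 43.2 CPM in siUSP9X. The groups overlapped throughout, with a log2 difference of 0.08 ± 0.11 (95% interval -0.16 to 0.33, edgeR adjusted p = 0.634) and 0.10 ± 0.10 without siUSP9X replicate 2. PMAIP1 was the gene of the set that siUSP9X replicate 2 moved least.

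XIAP, ITCH and MAP3K5 encode reported USP9X substrates outside the BCL2 family. XIAP (chromosome X, 123859724 to 123913979, plus strand) was at 122, 73.2, 98.0, 85.0 and 90.7 CPM in siCtrl and at 92.7, 199, 97.3, 89.6 and 111 CPM in siUSP9X. Replicate 2 of siUSP9X was the only library outside the siCtrl range. The log2 difference was 0.33 ± 0.23 (SE, 95% interval -0.17 to 0.83, edgeR adjusted p = 0.341) with that library and 0.06 ± 0.12 (95% interval -0.18 to 0.30, adjusted p = 0.747) without it.

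ITCH (chromosome 20, 34363235 to 34511393, plus strand) was at 319, 231, 272, 262 and 274 CPM in siCtrl and at 248, 563, 270, 227 and 267 CPM in siUSP9X. The value of siUSP9X replicate 2 was again the highest, and the others overlapped. The log2 difference of ITCH was 0.21 ± 0.23 (95% interval -0.29 to 0.72, edgeR adjusted p = 0.548) and turned to -0.10 ± 0.09 (95% interval -0.29 to 0.09, adjusted p = 0.445) without that library. MAP3K5 (chromosome 6, 136557047 to 136792518, minus strand) was at 48.2, 36.4, 43.8, 43.3 and 40.0 CPM in siCtrl and at 39.9, 67.5, 42.1, 35.4 and 39.2 CPM in siUSP9X. Its log2 difference likewise turned, from 0.08 ± 0.17 (95% interval -0.29 to 0.46, edgeR adjusted p = 0.762) to -0.11 ± 0.09 (95% interval -0.31 to 0.09, adjusted p = 0.427).

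**Figure D2:**
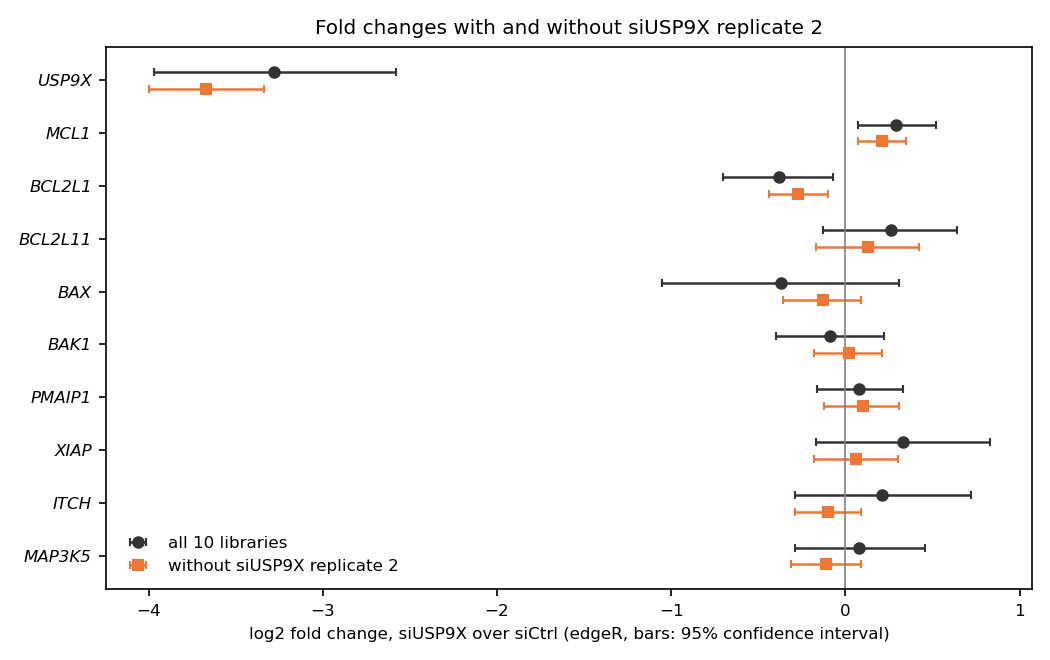
Log2 fold change (siUSP9X over siCtrl, horizontal axis) with its 95% interval for the 10 genes, from edgeR over all 10 libraries (circles) and without siUSP9X replicate 2 (squares). USP9X lies far to the left in both, and without replicate 2 the intervals of MCL1 (0.07 to 0.35) and BCL2L1 (-0.44 to -0.10) lie on opposite sides of 0.

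siUSP9X replicate 2 deviated most in the longest and in some of the shortest genes of the set. Set against the mean of the other 4 siUSP9X libraries, its log2 CPM was higher by 1.39 for USP9X, 1.16 for ITCH, 1.03 for XIAP, 0.79 for MAP3K5, 0.56 for BCL2L11 and 0.38 for MCL1. It differed by -0.04 for PMAIP1, -0.62 for BAK1, -0.67 for BCL2L1 and -1.98 for BAX. USP9X, with 13962 bases of exon, is the longest of the 10, and PMAIP1, BAK1, BAX and BCL2L1, with 2235, 2212, 2587 and 3314, are the shortest. Over all tested genes the median deviation of this library was -0.67 among the 3469 shortest genes (62 to 2884 bases) and 0.59 among the 3467 longest (7251 to 205012 bases). The correlation of this deviation with log length was 0.42 across 13868 genes, which share the library and are not independent replicates, and from -0.36 to 0.22 in the other 9 libraries. Over the 10 genes alone it was 0.82 in this library and ran from -0.90 to 0.80 in the others, so a trend of the set with length was not particular to this library, while the deviations themselves were smaller elsewhere (from -0.77 to 0.76). Each deviation is from the mean of the other 4 libraries of the group, so those of the other siUSP9X libraries contain this library. With offsets for length, a setting chosen after the data were seen, 10.7% of tested genes passed the threshold. BCL2L1 was then just under it (log2 fold change -0.30 ± 0.09, edgeR adjusted p = 0.04998) and MCL1 was not (0.35, adjusted p = 0.0791), while XIAP and ITCH lay at 0.14 and 0.12.

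**Figure D3:**
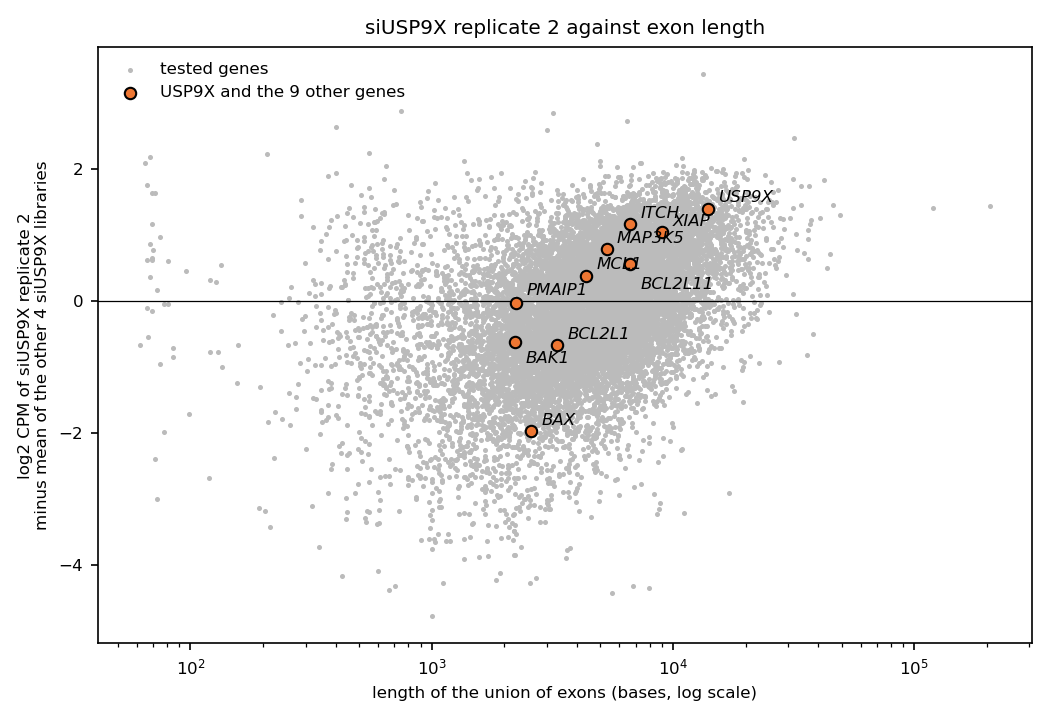
Deviation of siUSP9X replicate 2 from the mean of the other 4 siUSP9X libraries (vertical axis, log2 CPM) against the length of the union of exons (horizontal axis, bases, log scale) for the tested genes (grey) and the 10 genes (orange). The longest of the 10, USP9X, lies at 1.39 and the shorter BAX at -1.98.

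Ratios within a library do not depend on how libraries are scaled to each other. The log2 ratio of BCL2L1 over BAK1 counts was 2.14, 2.15, 1.93, 1.97 and 1.84 in siCtrl and 1.68, 1.67, 1.72, 1.77 and 1.69 in siUSP9X. All siUSP9X libraries lay below all siCtrl libraries, replicate 2 included, since it was low for both of these short genes. The means of this ratio were 2.01 ± 0.13 and 1.71 ± 0.04 (SD, n = 5 each). The log2 ratio of MCL1 over BCL2L1, added after the values had been seen, did not overlap either, at 1.08 ± 0.19 in siCtrl and 1.77 ± 0.48 in siUSP9X (1.56 ± 0.10 without replicate 2, n = 4). The ratio of BCL2L1 over BAX averaged 1.69 ± 0.11 and 1.81 ± 0.59, where siUSP9X replicate 2 stood at 2.86 and the other 4 siUSP9X libraries averaged 1.55 ± 0.08. The groups overlapped for this ratio, for MCL1 over PMAIP1 (3.19 ± 0.12 and 3.39 ± 0.24) and for MCL1 over BCL2L11 (5.26 ± 0.21 and 5.31 ± 0.16). How often ratios of other gene pairs separate the groups was not examined, and 14.6% of single tested genes do so. The separation is therefore a description.

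**Figure D4:**
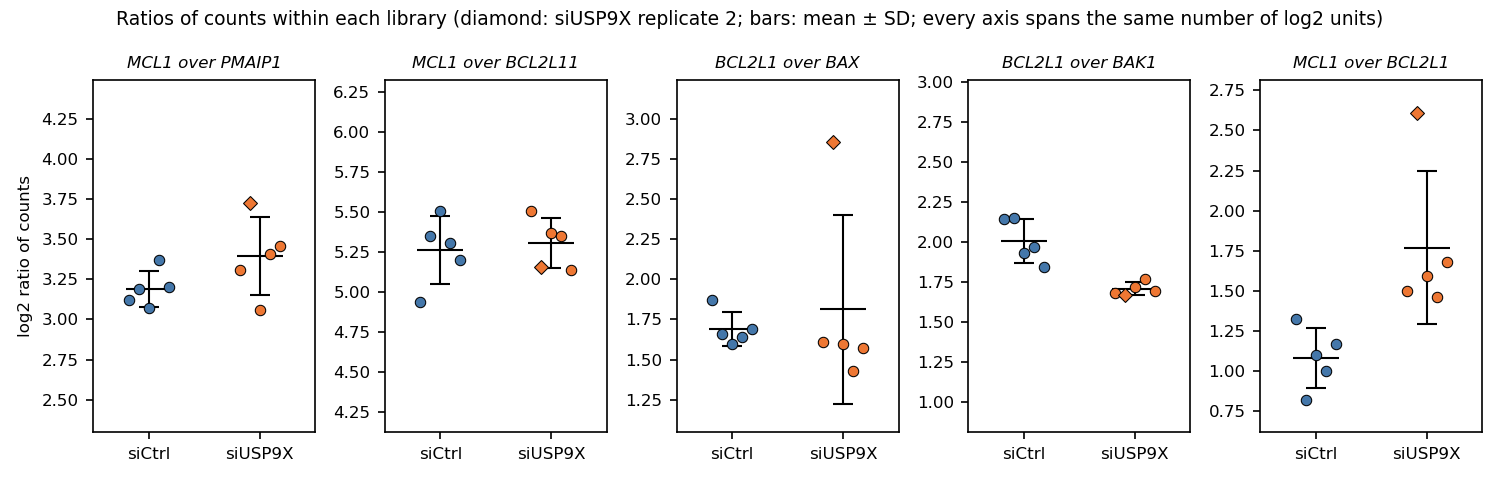
Log2 ratio of the counts of 2 genes in each library (vertical axes, each spanning the same number of log2 units), with the mean ± SD of each group (n = 5) and siUSP9X replicate 2 as a diamond. Only the ratios of BCL2L1 over BAK1 and MCL1 over BCL2L1 separate the groups among the 5 shown. The second of these was added after the values had been seen, and other gene pairs were not examined.

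Levels of different genes were set side by side per length, as CPM per kilobase of exon, in siCtrl. MCL1 was the highest of the 10 at 89.2 ± 3.17 (SD, n = 5), followed by BCL2L1 at 55.8 ± 5.49 and ITCH at 40.7 ± 4.77, and the ranges of these 3 did not overlap. USP9X at 24.4 ± 3.48, BAX at 22.3 ± 3.36, BAK1 at 20.9 ± 2.45 and PMAIP1 at 19.2 ± 1.96 had ranges that overlapped in this order, below that of ITCH. XIAP followed at 10.4 (from 8.12 to 13.5) and MAP3K5 at 7.98 (from 6.85 to 9.08), with ranges that overlapped. BCL2L11 was lowest at 1.54 ± 0.268. The order of BAX depends on the length chosen: per length of the longest coding transcript it stood at 42.4, level with ITCH at 42.4.

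The pathway around these genes was read from 11 lists with 86 distinct genes, 65 of which were tested beyond the 10 genes above. Of these 65, 6 were higher (BMF, BIRC2, CASP8, SMURF1, FBXW7 and LATS2), 3 were lower (FAS, TNFRSF10A and BCL2L2) and 56 did not pass, with a median log2 fold change of 0.02 against 0.03 over all genes. Over all tested genes 4.09% were higher and 3.22% lower, and the list counts below stand against these shares. Without siUSP9X replicate 2 the counts of the 65 were 12 higher and 11 lower, where 11.9% of all tested genes were higher and 11.5% lower.

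Among 4 tested survival genes of the BCL2 family 1 was lower. BCL2L2, which encodes BCL-W, fell from 32.0 ± 2.22 to 23.0 ± 3.69 CPM (SD, n = 5 each; log2 fold change -0.48 ± 0.13, edgeR adjusted p = 0.0429), a call kept in 2 of 10 fits with 1 library left out. BCL2A1 and BCL2L10 were too low to test. Of the 3 pore formers 0 passed with edgeR, DESeq2 or limma-voom, and 0 had an unadjusted p under 0.05. Of 7 BH3-only genes 1 was higher. BMF rose from 3.59 ± 1.26 to 9.05 ± 0.987 CPM, with siCtrl libraries between 2.14 and 5.20 and siUSP9X libraries between 7.81 and 10.2, a log2 fold change of 1.33 ± 0.22 (edgeR adjusted p = 0.00627). Its call held in all 10 fits with 1 library left out.

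Among the genes of death receptors and their adaptors 2 of 8 were lower and 0 higher, against 3.22% and 4.09% of all tested genes. FAS, the receptor of Fas ligand, fell from 62.1 ± 2.40 to 34.9 ± 8.44 CPM (SD, n = 5 each; log2 fold change -0.83 ± 0.15, edgeR adjusted p = 0.00827). Its highest siUSP9X value was in replicate 2, 49.6 CPM, and leaving it out gave a log2 fold change of -0.99. TNFRSF10A, a receptor of TRAIL, fell from 30.6 ± 3.48 to 19.4 ± 1.34 CPM (-0.65 ± 0.11, edgeR adjusted p = 0.00604). Both calls held in all 10 fits with 1 library left out. In the list of the apoptosome and caspases 1 of 9 was higher: CASP8, the initiator caspase of these receptors, rose from 50.1 ± 2.54 to 65.9 ± 4.88 CPM (0.39 ± 0.09, edgeR adjusted p = 0.0276, called in 3 of 10 such fits).

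Of 5 genes of inhibitor of apoptosis proteins 1 was higher. BIRC2, which encodes the ubiquitin ligase cIAP1, rose from 167 ± 13.5 to 263 ± 79.9 CPM (SD, n = 5 each; log2 fold change 0.66 ± 0.17, edgeR adjusted p = 0.0437). Its value in siUSP9X replicate 2 was 403 CPM, and leaving it out gave a log2 fold change of 0.45. The call of BIRC2 was kept in 2 of 10 fits with 1 library left out. HTRA2, the only tested antagonist of these proteins, did not pass (-0.53 ± 0.20, edgeR adjusted p = 0.113), and without siUSP9X replicate 2 it was lower (-0.38 ± 0.12, adjusted p = 0.0283).

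Among ligases of the NEDD4 family, to which ITCH belongs, 1 of 8 was higher. SMURF1, which is also among the reported substrates, rose from 77.5 ± 7.36 to 108 ± 8.81 CPM (SD, n = 5 each; log2 fold change 0.48 ± 0.10, edgeR adjusted p = 0.0190). The median of this list, 0.51, fell to 0.35 without siUSP9X replicate 2 and to 0.23 with length offsets. Of 5 genes for the turnover of the MCL1 protein 1 was higher. FBXW7, which encodes the substrate receptor of a ligase that marks MCL1, rose from 10.9 ± 1.19 to 20.5 ± 6.90 CPM (0.92 ± 0.20, edgeR adjusted p = 0.0216, and 0.70 without replicate 2). HUWE1, another MCL1 ligase, stood at 637 ± 128 and 891 ± 507 CPM and did not pass (log2 difference 0.48, edgeR adjusted p = 0.295). Its value in siUSP9X replicate 2 was 1793 CPM, and without that library the siUSP9X mean was 665 CPM and the difference 0.06 (adjusted p = 0.745). SMURF1 and FBXW7 each kept their call in 6 of 10 fits with 1 library left out.

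In the MAP3K5 cascade 0 of 10 genes passed with edgeR, where 3 had an unadjusted p under 0.05, limma-voom called 0 and DESeq2 1. Among 17 other reported USP9X substrates 3 were higher and 0 lower, against 4.09% and 3.22% of all tested genes, and without siUSP9X replicate 2 the list had 4 higher and 3 lower. The 3 higher genes over the 10 libraries were SMURF1 and FBXW7, given above, and LATS2. LATS2, a kinase of the Hippo pathway, rose from 42.7 ± 4.02 to 59.9 ± 2.90 CPM (SD, n = 5 each; log2 fold change 0.49 ± 0.10, edgeR adjusted p = 0.0148) and kept its call in 9 of 10 fits with 1 library left out. The median of the substrate list was 0.33 over all libraries and 0.09 without siUSP9X replicate 2.

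**Figure D5:**
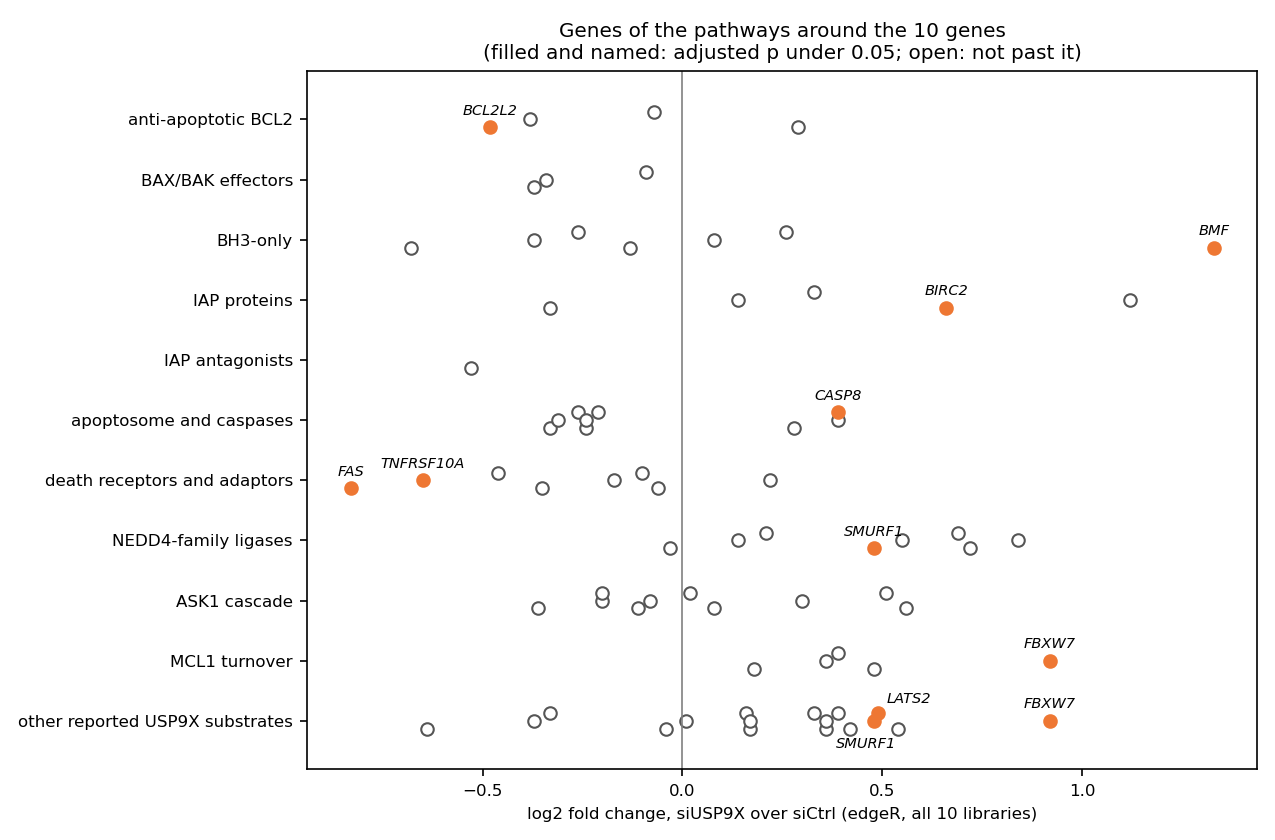
Log2 fold change (horizontal axis, edgeR, 10 libraries) of each tested gene of the 11 pathway lists, 1 list per row, with filled points for an adjusted p under 0.05. BMF lies farthest to the right at 1.33 and FAS farthest to the left at -0.83, and most points are open.

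Because an siRNA can lower transcripts that match its seed, 7-base words were sought, on the transcript strand, in the 3′ UTRs that GENCODE gives for tested genes, to rank them by the fold changes of the genes that hold them. After adjustment for UTR length, GC content and CPM, words were ranked by their mean times the square root of their number of genes. The lowest were AACTCTA, in 10.1% of 11905 genes with a UTR, AATCACA, in 14.3%, CAACTCT, in 11.3%, and ATCACAA, in 12.3%. Their adjusted means ran from -0.102 to -0.070, and rarer words such as AAGCGCG, at -0.146, had a lower adjusted mean. AACTCTA and CAACTCT overlap by 6 bases, as do AATCACA and ATCACAA. Without that adjustment the mean log2 fold changes of genes with these 4 words were 0.087, 0.103, 0.082 and 0.117, all above 0. The low rank of the 4 words thus rests on the adjustment and on the weight given to the number of genes. At least 1 of the 4 words stood in 51.5% of genes called lower, 28.5% of genes called higher and 31.4% of all. The words were picked from these same fold changes, and the siRNA sequence is not in the labels, so these shares are a description. XIAP and ITCH are among the genes that hold such words, while the UTRs of USP9X, MCL1 and BCL2L1 do not. FAS, TNFRSF10A and the higher genes BMF, BIRC2, CASP8, SMURF1 and LATS2 hold none either. Sites of 4 genes are shown, 5′ to 3′ with the words in capitals (GENCODE 29, GRCh38), so that they can be set against an siRNA seed.
XIAP (chrX:123907182-123907200, plus strand): tctAACTCTAtagtaggca
XIAP (chrX:123907574-123907598, plus strand): aatctccccAATCACAtaatttgtt
XIAP (chrX:123911488-123911513, plus strand): aaagatataAATCACAAtaaataaat
ITCH (chr20:34510710-34510734, plus strand): acttacaatAACTCTAtttaaaatt
BCL2L2 (chr14:23309890-23309914, plus strand): ccaaactgaAACTCTAaattggggc
FBXW7 (chr4:152322286-152322310, minus strand): atgtcaatcAATCACAgtattagcc
Of these 4 genes, BCL2L2 was lower, FBXW7 was higher, and XIAP and ITCH did not pass the threshold.

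The genes whose log2 CPM ran most like that of 4 of the genes over the 10 libraries were ranked by Pearson's r among 10561 genes, as a description. For USP9X these were CALU (r = 0.998), C6orf120 (0.995) and PRKAR1A (0.991), with log2 fold changes of -1.48, -1.27 and -1.33. For MCL1 they were APBB2 (0.993), ANKRD27 (0.991) and PEX13 (0.990), and for BCL2L1 EXOSC7 (0.997), UBE2S (0.996) and PSMB4 (0.996). For XIAP they were LRRC8B (0.996), NEMP1 (0.994) and ZNF850 (0.989). The 10 points of each r share the 2 groups and the deviation of siUSP9X replicate 2.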

How the data were processed

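The deposited table holds counts, whole numbers per gene symbol that the authors did not normalize, with 1 column per library, grouped and numbered by the sample titles. The build hg38 and the tools DESeq2 and RSEM appear in the submitters' processing notes, without versions. Not given in the sources used here are the aligner, the annotation and whether the counts are rounded RSEM estimates, in which case reads shared by similar genes were split before deposit. Per the labels' protocols, libraries were made with a stranded mRNA kit.

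Genes were tested with edgeR 4.0.16 (R 4.3.3; TMM factors, filterByExpr with a minimum count of 10, glmQLFit robust, glmQLFTest), two-sided, with Benjamini-Hochberg adjustment over 13934 genes and a threshold of 0.05. The procedure was tested on simulated data with larger changes than most given here and no trend with length. That test does not cover small changes or a deviating library. DESeq2 1.42.0, limma 3.58.1 (voom), other scalings and filters, the replicate block and leaving out each library were alternatives. No libraries were merged, since replicates differed beyond sampling noise (chi-square over its degrees of freedom 5.252 or more). CPM use TMM-scaled totals. Exon lengths, loci and UTRs come from GENCODE 29 (GRCh38), where 96.91% of lines matched 1 gene. Date-like symbols (27 lines, 0.253% of counts) and symbols on several lines were not matched to lists, which left out DIABLO, MARCHF5 and MARCHF7. The mural marker RGS5 was not matched either. The members and lists were chosen with earlier results of these data known. Named were the 10 genes, every list gene past the threshold, and the 3 genes most like USP9X, MCL1, BCL2L1 and XIAP; HTRA2, HUWE1 and other genes not past it were named for their roles. Ranking UTR words by their plain mean, as planned, gave CG-rich words. The adjustment and the weight by the number of genes were not planned and were added after that was seen. A planned search of protein sequences was not run, and some items are not reported here.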

Additional observations from a re-analysis of the deposited data

Results flagged for a closer look

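Within a group of 5 libraries, a value was singled out when its gap to the nearest other value, divided by the range of the group, was above Dixon's 95% critical value of 0.71. This was looked at for 19 genes in both groups, 38 sets of 5 values in all, and 10 were singled out. Chance would single out about 1 in 20 independent sets, but these sets share libraries and 9 of the genes were named for passing the group test, so that rate is no measure for this count. Of the 10 values 8 came from siUSP9X replicate 2. In that library BCL2L1 stood at 96.1 CPM against 148 to 163 in the other siUSP9X libraries, BAX at 13.2 against 49.0 to 60.6, and BAK1 at 30.2 against 46.0 to 47.9. XIAP stood at 199 CPM against 89.6 to 111, ITCH at 563 against 227 to 270, MAP3K5 at 67.5 against 35.4 to 42.1, BIRC2 at 403 against 202 to 249, and FAS at 49.6 against 28.7 to 34.2. The other 2 values were BAK1 in siCtrl replicate 1, at 36.5 CPM against 47.5 to 49.6 in the other siCtrl libraries, and PMAIP1 in siUSP9X replicate 3, at 54.9 CPM against 42.3 to 44.2.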

How the results depend on the processing

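USP9X was called lower under all 20 alternatives, with log2 fold changes from -3.67 to -3.14. BAK1 turned to 0.02 without siUSP9X replicate 2, 0.05 with length offsets and 0.01 with DESeq2 without that library, and under the first and the last of these ITCH turned to -0.10 and -0.10 and MAP3K5 to -0.11 and -0.11. When 1 library was left out, BAK1 ranged from -0.16 to 0.02, ITCH from -0.10 to 0.31 and MAP3K5 from -0.11 to 0.16. Over all tested genes, 570 higher and 449 lower became 1264 and 1078 with DESeq2, 1799 and 1847 with DESeq2 without siUSP9X replicate 2, 748 and 742 with length offsets, and ranged from 170 to 1674 and from 189 to 1620 when 1 library was left out. Of the 9 genes other than USP9X, 0 called higher became 1 with DESeq2 and 1 with DESeq2 without siUSP9X replicate 2, and 0 called lower became 1 with length offsets and 1 with DESeq2 without that library; leaving out 1 library gave 0 to 1 of each. Of list genes outside the 10, 6 called higher and 3 called lower became 12 and 6 with DESeq2 and 12 and 12 with DESeq2 without siUSP9X replicate 2, and ranged from 1 to 12 and from 2 to 11 when 1 library was left out. A fit with the replicate number as a block gave 34 higher and 57 lower genes, 0 and 0 among the list genes, and adjusted p of 0.0236 for USP9X, 0.281 for MCL1 and 0.275 for BCL2L1. Libraries with the same number did not deviate together (correlations from -0.4187 to 0.228), so the numbers were not taken to pair them. The causes of these changes were not tested. Low counts limit BCL2A1 (10 and 11 counts per group of 5), HRK (19 and 14) and BCL2L10 (0 and 0), of which nothing can be said.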

Other observations

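Without siUSP9X replicate 2, a view taken after that library was seen to stand apart, further genes of the pathway lists passed the threshold (edgeR quasi-likelihood test, adjusted over 14086 genes, of which 11.9% were higher and 11.5% lower). The list of the apoptosome and caspases then held 1 higher gene, CASP8. Its lower genes included CASP6 (log2 fold change -0.33 ± 0.11, adjusted p = 0.0394, but 0.03 with length offsets, adjusted p = 0.948). They also included CASP2 (-0.28 ± 0.10, adjusted p = 0.0423, and -0.36 with length offsets, adjusted p = 0.0348). The BH3-only gene BAD was lower (-0.47 ± 0.15, adjusted p = 0.0352), as was HTRA2, a mitochondrial protease that binds inhibitor of apoptosis proteins (-0.38 ± 0.12, adjusted p = 0.0283). Among inhibitor of apoptosis genes BIRC2 and BIRC6 were higher and BIRC5, which encodes survivin, was lower (-0.28 ± 0.08, adjusted p = 0.0178). BIRC6, a giant ligase of that family, had reached 392 CPM in the library left out and averaged 78.0 CPM in siCtrl and 113 CPM in the other siUSP9X libraries (0.54 ± 0.12, adjusted p = 0.00342). With length offsets over the 10 libraries BAD, HTRA2, BIRC5 and BIRC6 did not pass (edgeR adjusted p = 0.0804, 0.0613, 0.0617 and 0.0542). CASP8 and BIRC2 passed under that setting (edgeR adjusted p = 0.0407 and 0.0350), as did 10.7% of all tested genes.

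In the same fit 4 of 8 NEDD4-family ligases were higher and 0 lower. NEDD4 averaged 193 and 254 CPM in siCtrl and siUSP9X (log2 fold change 0.40 ± 0.10, edgeR adjusted p = 0.00788), NEDD4L 354 and 448 CPM (0.34 ± 0.08, adjusted p = 0.00428), and WWP1 47.0 and 64.4 CPM (0.46 ± 0.09, adjusted p = 0.00201), and the remaining gene was SMURF1. ITCH, of the same family, was not among them. With length offsets over the 10 libraries 2 of the 8 were higher, WWP1 and SMURF1, where 10.7% of all tested genes passed. NEDD4 and NEDD4L then did not pass (edgeR adjusted p = 0.0809 and 0.143). In the cascade of MAP3K5 1 gene was higher without siUSP9X replicate 2, the kinase gene MAP2K4 (0.34 ± 0.08, adjusted p = 0.00627). With length offsets MAP2K4 did not pass (edgeR adjusted p = 0.0580).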
